A study of Mus musculus with 30 samples.

Results

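Cardiac myocytes of Myh6-Cre:DspW/F mice (heterozygotes) were compared with those of wild-type mice, all aged 3 months and kept at regular activity. The comparison took 10 of the 30 RNA libraries of the series, 5 heterozygote and 5 wild-type, chosen by their labels, and was made across all genes of the deposited count table. The other libraries, 5 per group, came from heterozygotes and wild type at 6 months with regular activity, and from both genotypes at 6 months once 3 months of treadmill endurance training were completed. The title of the series describes the model as haplo-insufficient for desmoplakin. Myh6-Cre expresses Cre recombinase from a promoter active in cardiac myocytes, where Cre removes the floxed part of 1 Dsp allele. Whether wild-type mice carried Cre is not stated, so the presence of Cre and the loss of the Dsp allele cannot be told apart. Nor is it stated whether the 5 libraries of a group came from separate animals, so p-values measure only the spread between these libraries, which may be technical.

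Desmoplakin ties the desmosome to the intermediate filaments of the cell. Desmosomes, adherens junctions and gap junctions lie together in the intercalated disc, which couples neighbouring myocytes mechanically and electrically. Mutations in DSP and in the other desmosome genes are a known cause of arrhythmogenic cardiomyopathy, in which myocytes die and are replaced by fibrous and fatty tissue. The dystrophin complex forms a separate link, between the cytoskeleton of the myocyte and the extracellular matrix.

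The heterozygote libraries held 11232143 to 23365390 counts and the wild-type libraries 14775247 to 17264901 counts. Genes that define ventricular myocytes were abundant in every library. The 18 listed ones summed to between 114846 and 141831 CPM (counts scaled to a library of 1000000) in heterozygotes and between 126489 and 146062 CPM in wild type. In all that follows, values of a group are in the order of its replicates 1 to 5. Library sizes for CPM were adjusted by TMM, and a gene was called where its adjusted p from edgeR's quasi-likelihood test over all 15587 tested genes was under 0.05. A gene is said to have risen or fallen only where it was called. Among the heterozygotes, 3 libraries stood apart. The library labelled heterozygote 3 lay with the wild-type libraries for several genes that separated the genotypes. Heterozygotes 1 and 2 held many short RNAs at levels far above those of the other 8 libraries. Counts and key values are therefore also given without these libraries. Heterozygote 3 was set aside because of its values, so all p-values obtained without it are too small and serve as a description.

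Dsp itself (chromosome 13, 38151294 to 38198577, plus strand, GRCm38) had 728.1, 739.9, 1125, 655.5 and 572.3 CPM in heterozygotes, against 759, 1298, 1286, 751.6 and 1293 CPM in wild type. Heterozygote 3 lay between the lower wild types, 1 and 4, and the higher ones, 2, 3 and 5, and the groups overlapped only through heterozygote 3. The log2 difference was -0.50 ± 0.19 (SE), with an edgeR adjusted p of 0.311. Without heterozygote 3 it was -0.68, with an edgeR adjusted p of 0.101. Dsp therefore was not called by edgeR in either fit. The DESeq2 Wald test gave an adjusted p of 0.201 over all libraries and 0.032 without heterozygote 3. In an exact two-sided permutation test of this gene alone the p was 0.0556 for 5 against 5 libraries. No such p is given without heterozygote 3, since the choice of that library fixes the separation. A count over the whole gene also takes reads from the part of the gene outside the floxed segment. At 6 months the log2 difference of Dsp was -0.33 with regular activity (edgeR adjusted p = 0.657) and -0.88 after exercise (edgeR adjusted p = 0.0287).

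Over all 10 libraries 30 of 15587 genes were called, 0.192% of those tested, of which 26 (0.167%) rose and 4 (0.0257%) fell in heterozygotes. The test took its spread from all 30 libraries of the series. With the spread estimated from the 3-month libraries alone, 0 genes were called. The 30 calls held 14 of 13075 protein-coding genes and 14 of 181 short RNAs, and the last 2 were long non-coding or other genes. At an unadjusted p under 0.05 there were 1722 genes, or 11% of those tested. Without heterozygote 3 the calls numbered 73 (0.468%), 49 that rose (0.314%) and 24 that fell (0.154%). These were 34 protein-coding genes, 35 short RNAs, which all rose, and 4 others. The lists from both fits shared 28 genes. Among protein-coding genes 12 were called in both, and the number that fell was 4 over all libraries and 23 without heterozygote 3.

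The number of calls over all 10 libraries changed with the libraries and with the genes tested. When heterozygote 1, heterozygote 2 or both were left out, Ndnf was the only gene still called. With the test limited to protein-coding genes, Ndnf was again the only call over all libraries, and 5 genes, Dcakd, Dmd, Exoc2, Ndnf and Phlda3, were called without heterozygote 3. Leaving out wild type 3 also left Ndnf alone, and leaving out wild type 1, 2, 4 or 5 left 3, 6, 3 and 2 calls. Leaving out heterozygote 4 or 5 gave 68 and 72 calls.

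Ndnf, which encodes a secreted glycoprotein known to promote endothelial cell survival, was the most firmly separated gene. Its level (chromosome 6, 65671590 to 65712326, plus strand) was 33.8, 26.9, 8.81, 25.5 and 35.3 CPM in heterozygotes, against 9.52, 5.05, 7.55, 8.31 and 6.94 CPM in wild type. Heterozygotes 1, 2, 4 and 5 all lay above every wild-type library, while heterozygote 3 lay inside the wild-type range. Ndnf rose by 1.80 ± 0.25 on the log2 scale (SE), or 3.49-fold, with an edgeR adjusted p of 0.000736. Without heterozygote 3 it rose by 2.02 ± 0.19, with an edgeR adjusted p of 8.23e-08. Its call held in each of the 10 fits that left out 1 library, and with heterozygotes 1 and 2 both left out its log2 difference was 1.63 with an edgeR adjusted p of 0.0357. It was lost when the spread was estimated from the 3-month libraries alone, where its adjusted p was 0.248.

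Phlda3 is a target of the tumour suppressor p53 and encodes a protein with a pleckstrin homology domain that restrains the kinase Akt. It (chromosome 1, 135766119 to 135769136, plus strand) had 10.5, 17.6, 2.45, 16.7 and 7.75 CPM in heterozygotes, against 1.88, 1.53, 2.75, 1.51 and 3.08 CPM in wild type. The level in heterozygote 3 was below those of wild types 3 and 5, and the other 4 heterozygotes were above every wild-type library. Phlda3 rose by 2.35 ± 0.45 (log2, SE), with an edgeR adjusted p of 0.0409, and this call held in 3 of the 10 fits that left out 1 library. Without heterozygote 3 it rose by 2.61 ± 0.40 with an edgeR adjusted p of 0.00175, and the call held in all 9 fits that also left out another library. Those fits all lack the library set aside for its values, so they too are a description. With heterozygotes 1 and 2 left out and heterozygote 3 kept, the log2 difference was 2.06 and the adjusted p was 0.161.

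**Figure D1:**
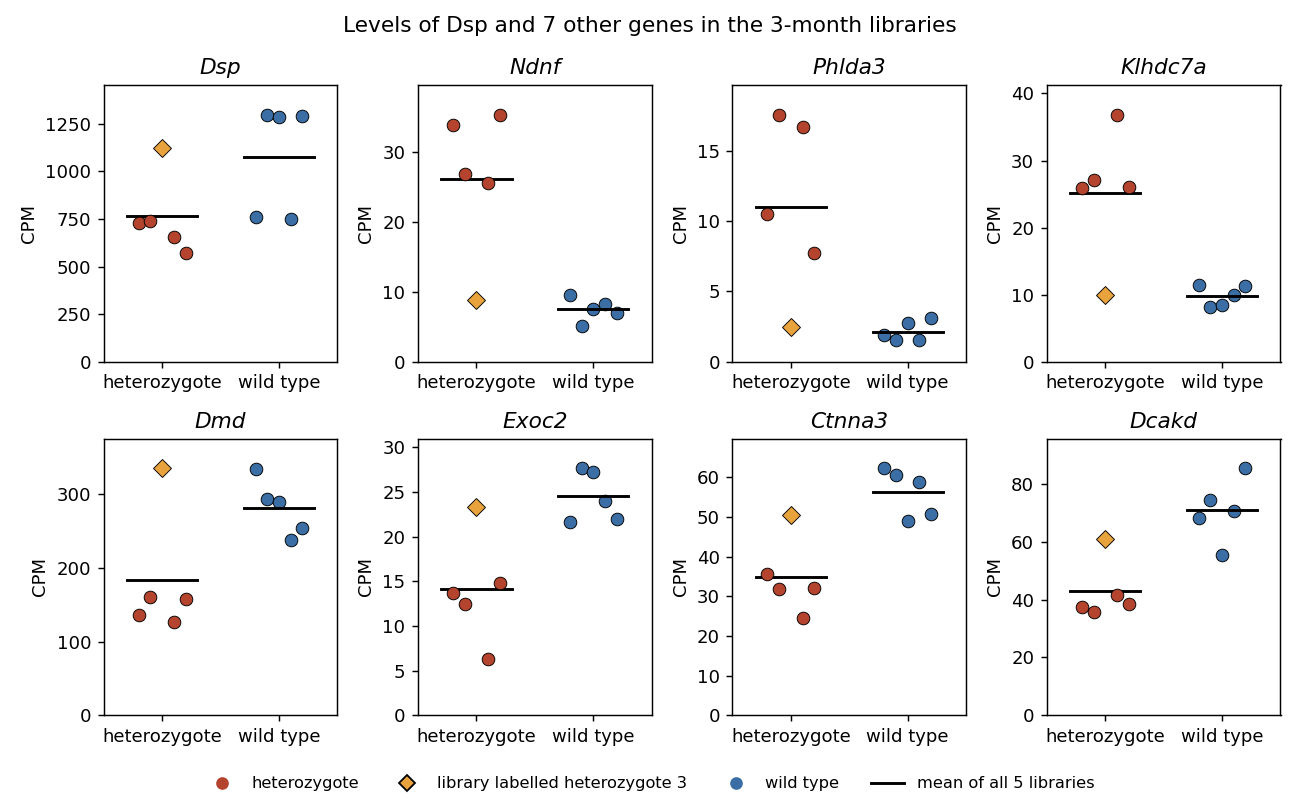
CPM (vertical axis, linear from 0) of Dsp and 7 other genes in each 3-month library, heterozygotes left and wild type right, with black bars for the mean of all 5 libraries of a group and a diamond for the library labelled heterozygote 3. For Ndnf, Phlda3, Klhdc7a, Dmd, Exoc2, Ctnna3 and Dcakd the other 4 heterozygotes lie apart from all 5 wild-type libraries, and the diamond lies within the wild-type range or, for Dmd, just above it.

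The other protein-coding genes called over all libraries had smaller differences or very low levels. Abi2, a subunit of the WAVE complex that drives actin assembly, had 19.0, 19.9, 19.6, 23.7 and 19.2 CPM in heterozygotes, against 16.8, 14.4, 11.7, 13.2 and 13.6 CPM in wild type. All heterozygotes, including heterozygote 3, lay above all wild types, and Abi2 rose by 0.54 ± 0.11 (log2, SE; edgeR adjusted p = 0.0497). The same adjusted p was reached by Stambpl1, a deubiquitinating enzyme (1.32 ± 0.28), by Acp2, a lysosomal acid phosphatase (0.58 ± 0.13), and by Sfxn1, a mitochondrial serine transporter (0.90 ± 0.20). It was also that of Snapc5, a subunit of the complex that activates small nuclear RNA genes (0.93 ± 0.21), and of Rpl13a, a protein of the large ribosomal subunit (1.26 ± 0.27). Sfxn1 and Snapc5 were no longer called without heterozygote 3. Of the 10 fits that left out 1 library, Abi2 and Rpl13a were called in 4, and Stambpl1, Acp2, Sfxn1 and Snapc5 in 2. Rpl13a had only 3.17 to 6.39 CPM in heterozygotes and 1.01 to 3.05 CPM in wild type. Near-identical copies of ribosomal protein genes share reads, so its level is uncertain.

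The 4 genes that fell over all libraries were Mettl26, Syde1, Rbm14 and Cnot11. Mettl26 had 9.49, 10.6, 11.1, 8.53 and 8.16 CPM in heterozygotes, against 15.4, 17.4, 13.0, 13.9 and 17.5 CPM in wild type. No heterozygote reached a wild-type level, and the gene fell by 0.68 ± 0.15 (log2, SE; edgeR adjusted p = 0.0497). Syde1 fell by 0.65 ± 0.14, and Rbm14, an RNA-binding protein of nuclear paraspeckles, fell by 0.58 ± 0.13, with the same edgeR adjusted p. Cnot11, a subunit of the CCR4-NOT complex that shortens the poly(A) tails of mRNA, fell by 0.51 ± 0.11, and its groups overlapped through heterozygote 5. Each of these 4 calls was lost in at least 8 of the 10 fits that left out 1 library. Of all genes tested, 218 (1.4%) had groups of 5 that did not overlap.

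Aqp6, a water channel best known from the kidney, was called at a low and uneven level. It had 14.4, 14.1, 24.5, 0 and 5.75 CPM in heterozygotes, against 0.347, 0, 0, 0 and 0 CPM in wild type. Heterozygote 3 was the highest library and heterozygote 4 held no read, so the groups overlapped. The edgeR adjusted p was 0.0497, and no fold change is given because wild type held 5 reads in all, from wild type 1. At 6 months with regular activity the heterozygotes had 0.127, 15.0, 0.111, 10.2 and 6.01 CPM, against 0, 0, 0, 0 and 0.145 CPM in wild type. After exercise the order was turned round, with 0.0836, 0.138, 0, 0.709 and 0 CPM in heterozygotes against 9.43, 0.473, 13.7, 16.9 and 8.85 CPM in wild type. Gm42641 was called as well, at 0.576 to 3.58 CPM in heterozygotes against 0 to 0.315 CPM in wild type.

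Without heterozygote 3, 23 of the 34 protein-coding calls were genes that fell. Dmd, one of them, encodes dystrophin, the protein that joins actin to the dystrophin complex. It (chromosome X, 82948870 to 85206141, plus strand) had 136, 160.3, 335.2, 127.2 and 157.5 CPM in heterozygotes, against 334.5, 293, 289, 238 and 254 CPM in wild type. Heterozygote 3 was higher than every wild-type library, and the other 4 heterozygotes were lower than every wild-type library. Over all libraries the log2 difference of Dmd was -0.62 ± 0.19 with an edgeR adjusted p of 0.181, so it was not called. Without heterozygote 3 it fell by 0.96 ± 0.14 with an edgeR adjusted p of 0.00107, and the call held in all 9 fits that left out a further library. Those fits all lack the library set aside for its values, so they too are a description. Of the 10 fits that left out 1 library from the full set, only the 1 without heterozygote 3 called Dmd. Of the 17 tested genes of the dystrophin complex list, Dmd was the only one called without heterozygote 3. Lama2, the laminin chain that the complex binds, had 78.7 to 109 CPM in heterozygotes and 108 to 160.4 CPM in wild type, a log2 difference of -0.44 with an edgeR adjusted p of 0.134.

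Ctnna3 encodes αT-catenin, which links cadherins and plakophilin-2 to actin at the intercalated disc. Its level (chromosome 10, 63430098 to 65003667, plus strand) was 35.6, 31.7, 50.6, 24.5 and 32.2 CPM in heterozygotes, against 62.3, 60.6, 49.1, 58.8 and 50.8 CPM in wild type. Heterozygote 3 lay between wild types 3 and 5, and the other heterozygotes lay below all wild types. The log2 difference was -0.69 ± 0.17 over all libraries (edgeR adjusted p = 0.0893). Without heterozygote 3 it fell by 0.86 ± 0.17 (edgeR adjusted p = 0.0127), and that call was lost, at an adjusted p of 0.0509, when heterozygote 2 was also left out. Of the 20 genes of the intercalated disc list, 0 were called over all libraries, and Ctnna3 was the only one called without heterozygote 3. The list's median log2 difference was -0.08 over all libraries, against -0.002 over all genes tested, and -0.09 against -0.009 without heterozygote 3. Its summed level was 6957, 6813, 6622, 6451 and 6148 CPM in heterozygotes and 6981 to 7080.4 CPM in wild type, so that every heterozygote lay below every wild-type library. The gap was narrow, 6957 against 6981 CPM, and how often sums of other genes separate the groups was not tested. The list's median over all libraries was also close to that of the fatty acid oxidation list (-0.07).

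Exoc2 encodes a subunit of the exocyst, which tethers secretory vesicles to the plasma membrane, and lies on the same chromosome as Dsp (chromosome 13, 30813919 to 30974093, minus strand). Its level was 13.7, 12.5, 23.4, 6.33 and 14.8 CPM in heterozygotes, against 21.7, 27.6, 27.2, 23.9 and 21.9 CPM in wild type. Heterozygote 3 was inside the wild-type range and heterozygote 4 was the lowest library. The log2 difference was -0.79 ± 0.19 over all libraries (edgeR adjusted p = 0.0733). Without heterozygote 3 Exoc2 fell by 1.05 ± 0.18 (edgeR adjusted p = 0.00336), and this held in all 9 fits with a further library left out. Of the 10 fits that left out 1 library from the full set, only the 1 without heterozygote 3 called Exoc2. The other 8 tested exocyst genes were all higher in heterozygotes in that fit, none of them called. Over all libraries 6 of the 9 tested exocyst genes were higher and 3 lower, so this uniform direction depended on setting heterozygote 3 aside. Exoc3, as an example, had 95.1 to 111 CPM in heterozygotes and 81.8 to 94.5 CPM in wild type, a log2 difference of 0.26 with an edgeR adjusted p of 0.28 over all libraries.

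Dcakd, named for a dephospho-CoA kinase domain (chromosome 11, 102994047 to 103028333, minus strand), had 37.4, 35.9, 60.9, 41.7 and 38.6 CPM in heterozygotes, against 68.2, 74.3, 55.4, 70.6 and 85.4 CPM in wild type. Heterozygote 3 exceeded wild type 3, and the remaining heterozygotes were below all wild types. Without heterozygote 3 the gene fell by 0.88 ± 0.17 (log2, SE), with an edgeR adjusted p of 0.00919, against a log2 difference of -0.72 and an adjusted p of 0.0626 over all libraries. Klhdc7a moved the other way (chromosome 4, 139960220 to 139968026, minus strand). It had 25.9, 27.0, 10.01, 36.8 and 26.1 CPM in heterozygotes, against 11.4, 8.22, 8.52, 9.89 and 11.3 CPM in wild type, with heterozygote 3 again inside the wild-type range. Klhdc7a rose by 1.56 ± 0.35 without heterozygote 3 (edgeR adjusted p = 0.0362), a call that held in 1 of the 9 fits with a further library left out.

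The other protein-coding genes that fell without heterozygote 3 covered several functions. Kcnd2, a potassium channel of the transient outward current, fell by 0.82 (log2; edgeR adjusted p = 0.047). It had 31.4 to 46.4 CPM in heterozygotes other than heterozygote 3, which had 59.7 CPM, and 53.3 to 88.2 CPM in wild type. Pdlim4, a PDZ and LIM domain protein that binds actin-associated proteins, fell by 1.21, Bcl6, a transcriptional repressor, by 1.00, and Kctd5, an adaptor of cullin ubiquitin ligases, by 0.90. Proteins of mitochondria were represented by Mrpl23 and Aurkaip1, both components of the mitochondrial ribosome (falls of 0.58 and 0.51), and by Coq4 of coenzyme Q synthesis (a fall of 0.69). Rhbdf1, Lmf2, Dusp8, Prcc, Ppp1r3d, Rbm22, Chtf8 and Rnf126 fell by 0.47 to 0.58. Blmh, a cysteine protease, and Tm9sf3, a membrane protein, rose by 0.50 and 0.45. Of all these genes, Mrpl23 kept its call in 8 of the 9 fits with a further library left out and each of the others in at most 5.

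The library labelled heterozygote 3 was placed for each gene between the mean of the other 4 heterozygotes, set to 1, and the mean of wild type, set to 0. For the 34 protein-coding genes called without it the median position was 0.27, and it lay inside the wild-type range for 14 of them. These genes were selected without that library but with knowledge of its values, so the placement is a description. Heterozygote 3 lay beyond wild type for Mrpl23 (-0.59), Kctd5 (-0.39) and Dmd (-0.27), and next to wild type for Klhdc7a (0.02), Exoc2 (0.06), Phlda3 (0.10) and Ndnf (0.13). It lay with the other heterozygotes for Abi2 (0.91), Rbm14 (0.91), Rpl13a (0.94), Stambpl1 (0.98), Acp2 (1.09) and Aqp6 (1.63). The adipocyte markers also differed in this library. They summed to 1.08, 0.89, 45.0, 10.04 and 9.50 CPM in heterozygotes and to 2.99 to 17.2 CPM in wild type, and their part in its position was not tested.

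**Figure D2:**
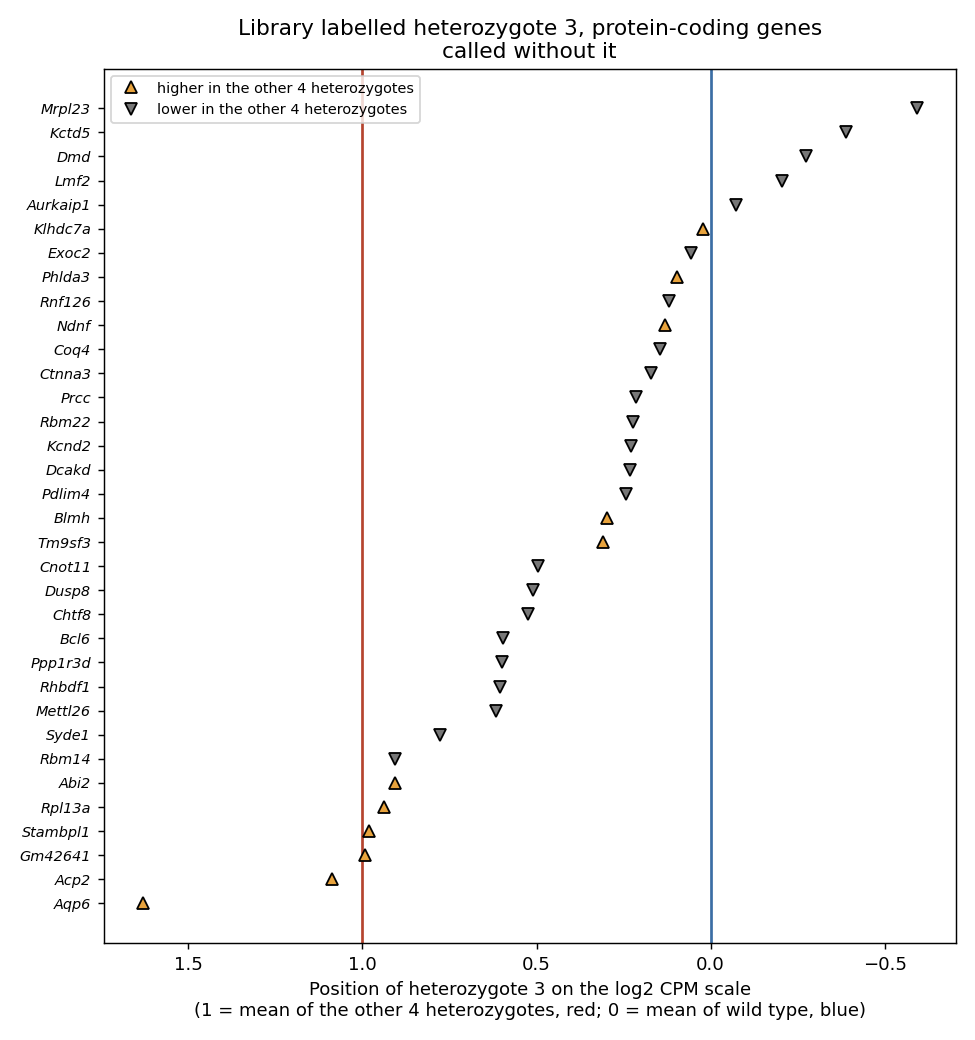
Position of the library labelled heterozygote 3 (horizontal axis, share of the difference on the log2 CPM scale) for the 34 protein-coding genes called without it, where 1 (red line, left) is the mean of the other 4 heterozygotes and 0 (blue line, right) the mean of wild type. Upward triangles are genes higher and downward triangles genes lower in the other heterozygotes. Positions run from -0.59 for Mrpl23 to 1.63 for Aqp6, with a median of 0.27.

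A second placement used genes that were chosen without any 3-month library. In the 6-month libraries 29 genes (0.186% of those tested) had heterozygotes that did not overlap wild type, in the same direction with regular activity and after exercise. At 3 months, the number of these genes nearer to the mean of the later heterozygotes than to that of the later wild types was 19, 24, 4, 17 and 15 in heterozygotes, against 3, 5, 9, 12 and 7 in wild type. Heterozygote 3 thus lay within the wild-type range by this count and every other heterozygote above it. That library was set aside because of its values, and Ndnf, Dmd, Exoc2, Ctnna3 and Dcakd are among the 29 genes. This placement and the shifts below are therefore also descriptions. For the 21 genes called at 6 months with regular activity, the median log2 shift from the 3-month wild-type mean toward the later genotype effect was 0.65, 0.76, 0.06, 0.68 and 0.37 in heterozygotes, against -0.11 to 0.12 in wild type. For the 63 genes called after exercise it was 0.31, 0.31, 0.06, 0.45 and 0.36 in heterozygotes, against -0.06 to 0.06 in wild type.

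Without heterozygote 3, 416 genes (2.67%) had groups that did not overlap at 3 months, and 8 of 15587 (0.0513%) separated the genotypes in the same direction in all 3 sets of libraries. These were Ndnf and Pcolce, higher in heterozygotes, and Dmd, Exoc2, Ctnna3, Dcakd, Imp3 and the long non-coding RNA AC160401.1, lower in heterozygotes. Heterozygote 3 was nearer to wild type than to the other heterozygotes for all 8, which is a description, since that library was picked out by its values. Ndnf stayed between 22.6 and 33.2 CPM in heterozygotes at 6 months and between 27.5 and 40.9 CPM after exercise, against 4.63 to 10.4 and 9.53 to 13.1 CPM in the wild types of those sets. Pcolce, whose product enhances the maturation of procollagen, had 33.2, 30.1, 17.6, 42.6 and 29.1 CPM in heterozygotes at 3 months, against 13.7, 27.3, 25.9, 26.4 and 22.2 CPM in wild type. Its log2 difference was 0.40 at 3 months (edgeR adjusted p = 0.415) and 1.23 at 6 months. Imp3, a protein of the U3 small nucleolar ribonucleoprotein, had 17.4 to 21.7 CPM in heterozygotes other than heterozygote 3, which had 29.96 CPM, against 22.0 to 26.7 CPM in wild type.

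AC160401.1 (chromosome 10, 57117222 to 57157621, plus strand) is an unnamed long intergenic transcript at low level. At 3 months it had 0.346, 0.243, 3.84, 0 and 0 CPM in heterozygotes, against 1.46, 2.82, 3.95, 1.76 and 1.11 CPM in wild type. Heterozygote 3 held 61 of the 73 heterozygote reads, and the wild types together held 183. At 6 months it had 0.111 to 0.570 CPM in heterozygotes and 0.940 to 3.12 CPM in wild type, and after exercise 0 to 0.753 CPM in heterozygotes and 1.08 to 2.24 CPM in wild type. At 3 months it was called without heterozygote 3 (edgeR adjusted p = 0.0152) and not over all libraries, where the adjusted p was 0.545.

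**Figure D3:**
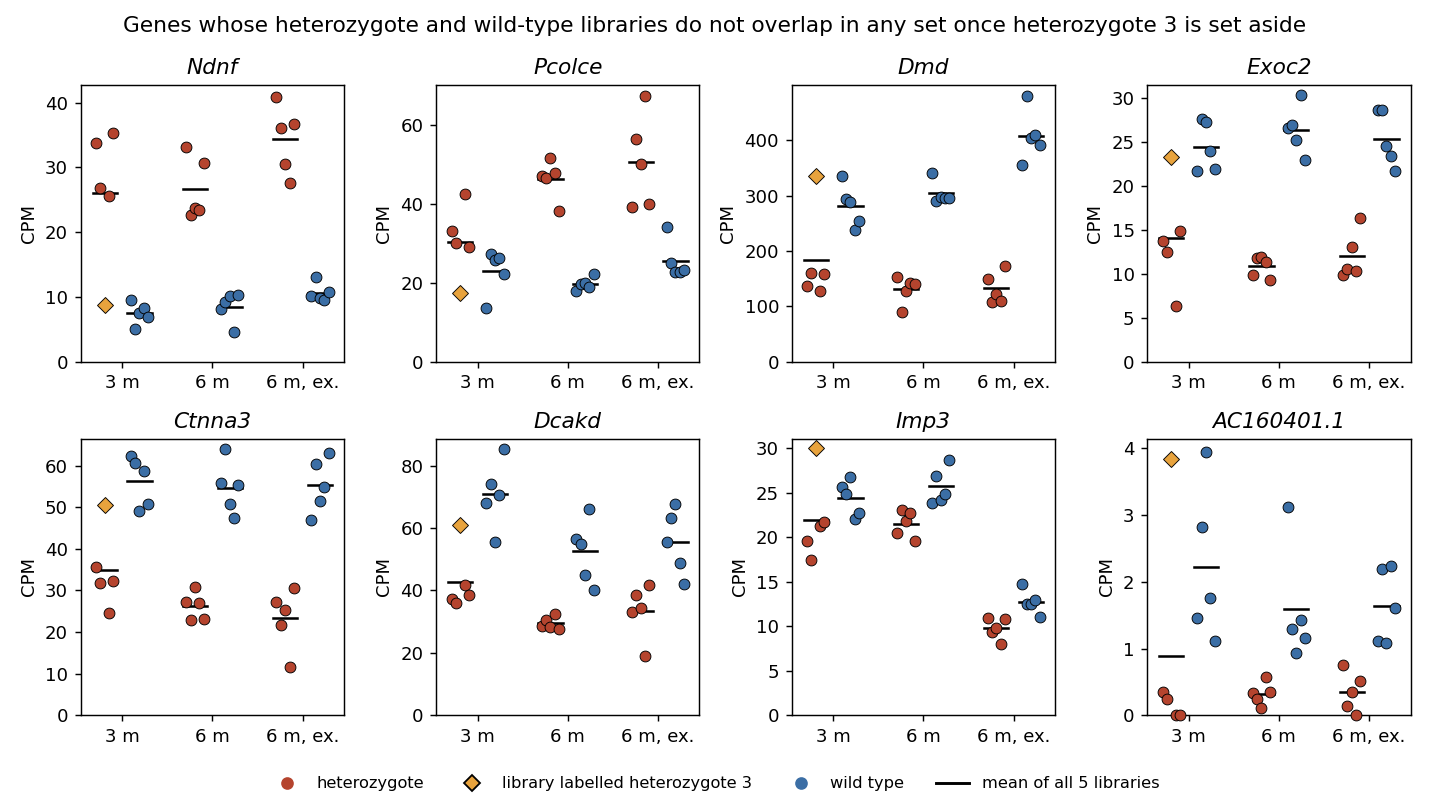
CPM (vertical axis, linear from 0) of the 8 genes without overlap in every set once heterozygote 3 is set aside, for heterozygotes (left of each pair) and wild type (right) at 3 months (3 m), at 6 months (6 m) and at 6 months after exercise (6 m, ex.). Bars are means of all 5 libraries, and the diamond, the library labelled heterozygote 3, lies nearer to the wild-type mean than to the mean of the other 4 heterozygotes in each panel.

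Few of the 3-month calls were made at the later age. Of the 14 protein-coding genes called over all libraries, 10 had the same direction at 6 months and 9 after exercise, and Ndnf was the only one also called there. Of the 34 called without heterozygote 3, 23 and 25 had the same direction. Ctnna3, Dcakd, Dmd, Exoc2 and Ndnf were also called at 6 months, where 21 genes (0.135%) were called, 5 that rose (0.0321%) and 16 that fell (0.103%). Those 5 and Kcnd2 were also called after exercise, where 63 genes (0.404%) were called, 35 that rose (0.225%) and 28 that fell (0.18%). Dmd fell by 1.22 at 6 months and by 1.62 after exercise on the log2 scale, and Ctnna3 by 1.06 and 1.25. Phlda3 had log2 differences of 1.51 at 6 months and 1.20 after exercise, with edgeR adjusted p-values of 0.247 and 0.297. The difference between the genotype effects at 3 and 6 months was tested directly as an interaction. No gene was called by edgeR, with 1253 genes (8.04%) at an unadjusted p under 0.05, and DESeq2 called 23. Without heterozygote 3 edgeR called Gm15487, a processed pseudogene, which had 1.13 to 10.04 CPM in heterozygotes and 0.687 to 4.98 CPM in wild type at 3 months.

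The short RNAs called at 3 months were high in heterozygotes 1 and 2 alone. Y RNAs are small RNA polymerase III transcripts that bind the Ro60 protein, U12 is the small nuclear RNA of the minor spliceosome, and small nucleolar RNAs (snoRNAs) guide chemical modification of ribosomal RNA. Both mouse Y RNAs are shown because Rny1 had the largest fold change of the called short RNAs, with the longest run of bases that they share (12 bases, from position 46 of Rny1 and position 45 of Rny3) in capitals. The sequences, 5′ to 3′, are the transcripts of GENCODE M21 (GRCm38), Rny1 on the minus strand at chr6:47788069-47788180 and Rny3 on the plus strand at chr6:47781624-47781725. Rnu12, on the plus strand at chr15:83149644-83149794, is shown for its similar size and carries no capitals.
Rny1: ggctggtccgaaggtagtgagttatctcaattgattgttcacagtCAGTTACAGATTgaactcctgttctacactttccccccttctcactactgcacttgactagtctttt
Rny3: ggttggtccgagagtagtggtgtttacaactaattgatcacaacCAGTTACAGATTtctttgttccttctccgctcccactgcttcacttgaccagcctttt
Rnu12: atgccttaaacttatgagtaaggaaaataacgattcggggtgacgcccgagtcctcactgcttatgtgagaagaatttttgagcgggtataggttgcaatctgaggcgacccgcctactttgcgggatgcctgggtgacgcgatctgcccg

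Rny1 had 5118, 3639, 28.3, 22.0 and 57.9 CPM in heterozygotes, against 13.1, 16.0, 9.67, 25.1 and 20.9 CPM in wild type. Rny3 had 637, 825, 8.69, 5.98 and 8.08 CPM in heterozygotes, against 5.70 to 8.31 CPM in wild type. Rnu12 had 768, 575, 11.2, 8.11 and 12.9 CPM in heterozygotes, against 7.51 to 12.7 CPM in wild type. In each case heterozygotes 1 and 2 exceeded every other library many times over, and heterozygotes 3, 4 and 5 lay far below them. For Rny1, heterozygotes 3 and 5 were nonetheless above every wild-type library. The log2 differences of group means were 6.71 for Rny1 (edgeR adjusted p = 0.0385), 5.43 for Rny3 (0.0497) and 4.75 for Rnu12 (0.0497). None of the 3 was called once heterozygotes 1 and 2 were left out. The mitochondrial methionine transfer RNA, mt-Tm, showed the same distribution, with 2545 and 1721 CPM in heterozygotes 1 and 2, 15.0 to 23.9 CPM in the other heterozygotes and 15.7 to 31.6 CPM in wild type. At 6 months Rny1 had 4.55 to 15.0 CPM in heterozygotes and 5.03 to 13.7 CPM in wild type.

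Counting every tested gene, 45 of 15587 (0.289%) had more than 4-fold higher CPM in both heterozygotes 1 and 2 than in each of the other 8 libraries (after adding 0.5 CPM). These were 32 of 65 snoRNAs, 7 of 41 small nuclear RNAs, 2 of 13 small Cajal body RNAs, 2 of 29 miscellaneous RNAs and 2 of 11 mitochondrial transfer RNAs. None of 13075 protein-coding genes, 2331 long or other genes or 18 microRNAs was among them. By length, 40 of the 116 genes with 102 to 197 exon bases met the criterion and 5 of the 40 with 56 to 100, but none of the 43 with 201 to 300 or of any longer class. Vaultrc5 had 2432 and 1431 CPM in heterozygotes 1 and 2, 174 to 415 CPM in the other heterozygotes and 213 to 365 CPM in wild type. Rmrp had 651 and 771 CPM in heterozygotes 1 and 2, 174 to 280 CPM in the other heterozygotes and 171 to 265 CPM in wild type. Both short RNAs were highest in heterozygotes 1 and 2 without meeting the 4-fold criterion, which therefore missed part of the pattern. Some other abundant short RNAs were not distributed in this way. The 7SK and 7SL genes together took 1.44% to 1.81% of the counts in heterozygotes and 1.49% to 1.90% in wild type. Rpph1, the RNA of ribonuclease P, had 5695 CPM in heterozygote 1, below every other library, the lowest of which had 9353 CPM (wild type 3). All short RNAs together took 4.45% ± 0.80 of the counts in heterozygotes and 3.97% ± 0.57 in wild type (SD, n = 5 each), a difference of 0.483 percentage points (exact two-sided permutation test, p = 0.302). Apart from 7SK and 7SL the share was 3.77% and 3.60% in heterozygotes 1 and 2, 2.04% to 2.56% in the other heterozygotes and 1.79% to 2.91% in wild type. Heterozygotes 1 and 2 also had reads for 22947 and 20493 genes, against 15383 to 19474 in the other libraries, and whether the recovery of short RNA differed between libraries was not tested.

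**Figure D4:**
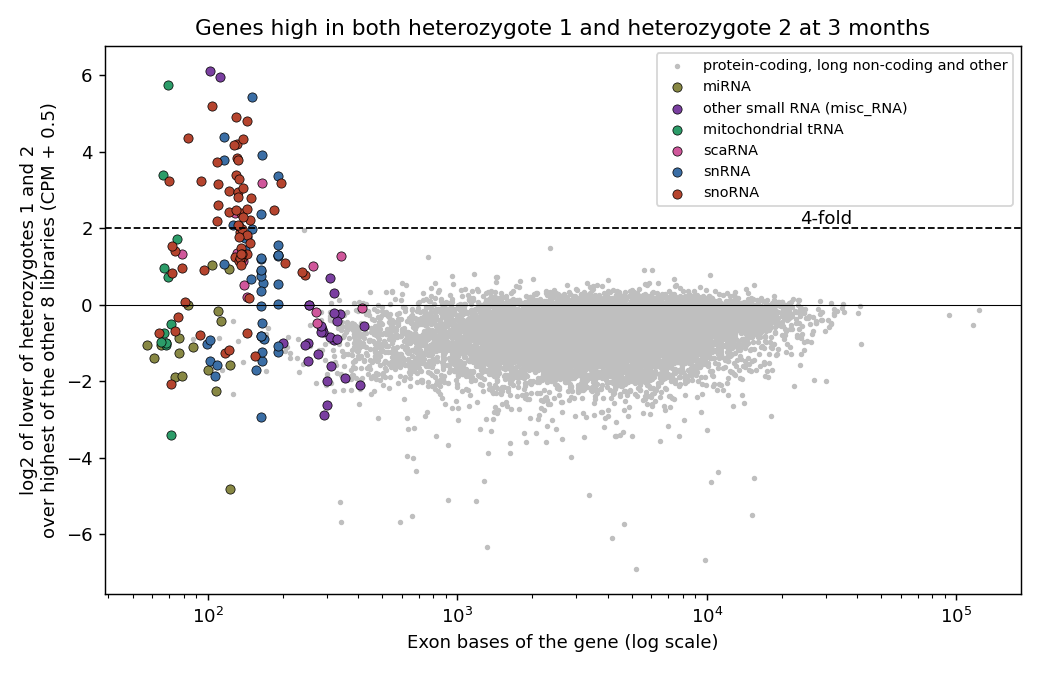
Each point is a tested gene, with its exon bases (horizontal, log scale) and the log2 ratio of the lower CPM of heterozygotes 1 and 2 to the highest CPM of the other 8 libraries (vertical, after adding 0.5 CPM). The 45 genes above the dashed 4-fold line are all short RNAs with at most 197 exon bases, 32 of them snoRNAs.

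Of the desmosome list, 7 of 13 genes were expressed well enough to be tested, 3 were higher and 4 lower in heterozygotes, and none was called over all libraries or without heterozygote 3. The cadherins Dsc2 and Dsg2 had log2 differences of 0.41 and 0.32 (edgeR adjusted p = 0.231 and 0.462). For Dsc2 the heterozygotes, at 68.98, 65.1, 57.5, 54.0 and 55.7 CPM, did not overlap the wild types, at 49.6, 45.9, 44.5, 50.1 and 37.0 CPM. Plakoglobin (Jup) and plakophilin-2 (Pkp2) had log2 differences of -0.15 and -0.07. The gap junction gene Gja1 had 789, 761, 418, 379 and 272 CPM in heterozygotes, against 281 to 446 CPM in wild type, and was not called (edgeR adjusted p = 0.592).

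Targets of p53 were mostly higher in heterozygotes. Of 29 tested genes of the p53 list, 23 were higher and 6 lower, with a median log2 difference of 0.21, against -0.002 over all genes tested. One of them, Phlda3, rose. Aen, a nuclease, had 31.5, 32.5, 27.9, 41.2 and 29.99 CPM in heterozygotes, against 20.4 to 28.3 CPM in wild type, and Eda2r, a death receptor, had 6.45, 5.99, 0.818, 3.30 and 3.33 CPM in heterozygotes, against 1.11 to 3.84 CPM in wild type. Neither was called (edgeR adjusted p = 0.13 and 0.309). Cdkn1a, the p53-induced inhibitor of the cell cycle, had 7.64, 7.85, 7.17, 10.1 and 15.6 CPM in heterozygotes, against 2.29, 6.87, 33.4, 2.14 and 4.06 CPM in wild type. Every heterozygote was above 4 of the 5 wild types, and wild type 3 was above all heterozygotes. Mdm2, which encodes the ubiquitin ligase of p53, had a log2 difference of 0.19 and was not called (edgeR adjusted p = 0.531).

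Genes of contraction and metabolism had median differences near that of all genes. Of 27 sarcomere genes 10 were higher and 17 lower, with a median log2 difference of -0.03. The median was -0.05 for 25 calcium handling genes, -0.07 for 35 fatty acid oxidation genes, -0.04 for 29 genes of the citric acid cycle and branched-chain amino acid breakdown, and 0.02 for 52 oxidative phosphorylation genes. Without heterozygote 3 the median of the oxidative phosphorylation genes changed sign, to -0.04, with 24 higher and 28 lower, against 29 higher and 23 lower over all libraries. The fatty acid oxidation genes were higher in 7 and lower in 28 cases without it, against 12 and 23 over all libraries. None of these lists held a called gene in either fit. Casq2, the calcium buffer of the sarcoplasmic reticulum, had 1150 to 1395 CPM in heterozygotes and 764 to 1107 CPM in wild type without overlap, a log2 difference of 0.36 (edgeR adjusted p = 0.203). Of the wall stress genes, Nppa had 546, 57.8, 72.1, 51.4 and 23.0 CPM in heterozygotes, against 248, 26.1, 313, 38.7 and 41.0 CPM in wild type. Nppa is also an atrial gene, and the atrial marker list was highest in the same libraries, with 1868 CPM in heterozygote 1 and 682 and 790.4 CPM in wild types 1 and 3. The part of atrial cells in the Nppa values was not tested. Nppb, Myh6, Myh7 and Des were not called. Ribosomal protein genes were higher in 50 of 70 cases, with a median log2 difference of 0.11 and 1 call, Rpl13a. Without heterozygote 3 they were higher in 44 cases, with a median of 0.05. Their sum was 12584 CPM in heterozygote 3 and 9393 to 10736 CPM in the other heterozygotes, against 9226 to 11201 CPM in wild type.

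No marker of another heart cell type was called in either fit. All 20 endothelial markers were lower in heterozygotes, with a median log2 difference of -0.55. They summed to 542, 558, 631, 656 and 686 CPM in heterozygotes, against 600.5, 655, 1401, 993 and 826 CPM in wild type. Wild types 3, 4 and 5 were above every heterozygote, and wild types 1 and 2 were within the heterozygote range. Nos3, the endothelial nitric oxide synthase, had 10.6, 8.42, 10.5, 14.5 and 12.3 CPM in heterozygotes, against 14.8, 17.0, 20.7, 27.9 and 17.7 CPM in wild type, without overlap (log2 difference -0.80, edgeR adjusted p = 0.139). Cldn5, a tight junction protein of endothelium, had a log2 difference of -1.48 (adjusted p = 0.154). Fibroblast markers were lower in 16 of 17 cases, with a median of -0.28 and sums of 268 to 424 CPM in heterozygotes and 315 to 531 CPM in wild type. Extracellular matrix genes were lower in 28 of 38 cases, with a median of -0.23 and no call. In bulk libraries, fewer cells of a type and less RNA per cell cannot be told apart. At 6 months with regular activity the medians of the endothelial, fibroblast and matrix lists were 0.38, 0.69 and 0.85. After exercise they were -0.43, 0.29 and 0.56, so the endothelial list was again lower in heterozygotes there. The macrophage markers summed to 17.7 to 35.03 CPM in heterozygotes and 22.8 to 38.4 CPM in wild type. Ly6g, a neutrophil marker, had no read in any 3-month library.

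Interferon-induced genes were higher in 20 of 29 cases, with a median log2 difference of 0.16 over all libraries and 0.34 without heterozygote 3, and none was called. Their summed level was 840.1, 263, 179, 139 and 226 CPM in heterozygotes, against 185, 190, 281, 246 and 174 CPM in wild type, so that heterozygote 1 alone stood far above the rest. B2m, the light chain of class I histocompatibility molecules, had 510 CPM in heterozygote 1 and 46.0 to 108 CPM in the other heterozygotes, against 58.1 to 97.2 CPM in wild type. Very long genes were lower in 18 of 28 cases, with a median of -0.15. Without heterozygote 3, Dmd and Ctnna3 of that list fell and the other 26 were not called.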

How the data were processed

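Per the labels' protocols, total RNA was extracted with a miRNAeasy kit, and ribosome-depleted paired-end libraries were stranded. The submitters' processing notes name featureCounts, HISAT2, Trim Galore and mm10, with versions and strand setting not given in the sources used here. The authors deposited unnormalized read counts in 1 table of all 30 libraries, with 52550 genes and 23 spike-in entries, which were left out. Overlapping, antisense and near-identical genes could share reads, and such values are uncertain. Gene positions came from GENCODE M21 (52403 gene IDs matched).

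Genes passing filterByExpr (15587) were scaled by TMM and tested with edgeR's quasi-likelihood F test with robust fitting (edgeR 4.0.16, limma 3.58.1, R 4.3.3), with 1 coefficient for each of 6 groups fitted to the 30 libraries together (residual df 24). P-values were adjusted by the Benjamini-Hochberg method. SE is the absolute log2 difference divided by the square root of F. The log2 CPM values use a prior count of 2. The same fit was made without the library labelled heterozygote 3. Single values were tested with exact permutation over libraries. Lists are described by counts and medians, without a test. The members and the 45 lists were chosen with earlier results of these data known.

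The text names Dsp and all protein-coding calls over all libraries. From the groups that follow it names some members and leaves out others, such as Gm23143, Gm25099 and Dancr. One group was the 6 other calls of largest change over all libraries. Another was up to 10 calls of largest change in each direction without heterozygote 3. These had a mean log2 CPM of at least 1, no provisional symbol and at least 8 of 9 libraries on their own side. Further groups were up to 4 genes per list with the smallest p, and 15 genes chosen with earlier results of these data known. The 15 were Jup, Pkp2, Dsg2, Dsc2, Gja1, Des, Nppa, Nppb, Myh6, Myh7, Dmd, Ctnna3, Exoc2, Cdkn1a and Mdm2. Other genes, including those without overlap in every set, were chosen after their values were seen. Alternatives were DESeq2 size factors, no low-count filter, the DESeq2 Wald test (DESeq2 1.42.0), limma-voom with quality weights, 3-month libraries only, removal of short RNA, mitochondrial and the 10 most abundant genes, protein-coding genes only, a threshold of 0.01, a replicate block, Xist level as a term, and leaving out libraries. The test was checked on simulated counts in which no library was made to stand apart. Fold changes of 1.5, 2, 3 and 4, put into 50 genes each, were recovered in 34%, 62%, 94% and 96% of them. The changed genes were drawn only from those whose mean CPM had a log2 above 1, so the rates do not cover genes at lower levels. Of 15387 unchanged genes, 9 were called. No pair of 3-month libraries of one group agreed within sampling noise (chi-square per degree of freedom 22.3 to 86.1).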

Additional observations from a re-analysis of the deposited data

Results flagged for a closer look

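In 104 sets of 5 libraries (52 measures in each genotype), 10 held a library whose gap to its neighbour exceeded 0.71 of the whole range, the 95% critical value of Dixon's test, and chance gives about 1 in 20. Of the 10, 3 concerned the library labelled heterozygote 3, with 335 CPM of Dmd (127 to 160 in the other heterozygotes), 60.9 CPM of Dcakd (35.9 to 41.7) and 84.6 CPM of Aurkaip1 (55.8 to 62.1). The genes measured included those called only without that library. Its outlying place among them thus partly follows from how they were picked, and the rate by chance does not apply to it. Among the other heterozygotes, Nppa had 546 CPM in heterozygote 1 (23.0 to 72.1 in the others), Abi2 23.7 CPM in heterozygote 4 (19.0 to 19.9), Gm42641 3.58 CPM in heterozygote 5 (0.576 to 1.13) and Mdm2 63.9 CPM in heterozygote 5 (45.1 to 50.1). Among wild types, Cdkn1a had 33.4 CPM in wild type 3 (2.14 to 6.87 in the others) and Aqp6 0.347 CPM in wild type 1 (0 in the others). Transcripts of the mitochondrial genome took 15.4% of the counts in wild type 1 (10.9% to 11.9% in the others).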

How the results depend on the processing

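Over all libraries 30 genes were called. The count was 145 with the DESeq2 Wald test, 6 with Xist as a term, 2 without a low-count filter, 0 with the 3-month libraries only (1120 at an unadjusted p under 0.05), and 1 each at a threshold of 0.01, with protein-coding genes only, with short RNA, mitochondrial and the most abundant genes removed, and with heterozygotes 1 and 2 left out. It ranged from 1 to 73 with 1 library left out. Limma-voom gave 36 calls, of which 12 rose and 24 fell, against 26 and 4 in edgeR. Without heterozygote 3 the count was 73, and it was 205 with DESeq2, 520 with limma-voom (226 rose, 294 fell), 48 without a filter, 16 at 0.01, 7 with the 3-month libraries only, 5 with protein-coding genes only and 9 with short RNA, mitochondrial and abundant genes removed. It ranged from 18 (heterozygote 1 left out) to 155 (heterozygote 5 left out), with 21 when heterozygote 2 was left out. The interaction with age gave 0 calls, 1 (Gm15487) with heterozygote 3 left out and 23 with DESeq2. The cause of these changes was not tested, apart from settings that test fewer genes or libraries. Over all libraries, the log2 difference of Dsp and the short RNA share (0.272 to 0.699 percentage points with 1 library left out) kept their direction and their side of the threshold in the settings run. Without heterozygote 3, Dsp was called by DESeq2 (log2 difference -0.67, adjusted p = 0.032) and in none of the other settings, where its adjusted p was 0.0566 to 0.472. With heterozygotes 1 and 2 left out, the log2 differences of mt-Tm (-0.19) and Gm22154 (-0.10) turned negative. Of 4164 values of uncalled named genes under alternatives, 57 changed sign.

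Replicate numbers were not used to pair the libraries in the main fit. The correlation of deviations from the group means was -0.004, 0.080, 0.023, 0.016 and -0.017 at 3 months for numbers 1 to 5. It ran from -0.085 to 0.154 at 6 months with regular activity and from -0.252 to 0.093 after exercise. Such correlations cannot settle whether the libraries were paired by design. A replicate block left 1 call over all libraries and 12 without heterozygote 3, and 0 for the interaction.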
